A study of Arabidopsis thaliana with 2 samples.

Results

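The PLT3 peaks described here are those whose centre lay 1.5 to 4 kb downstream of the nearest transcription start site (TSS) of a protein-coding gene, on the 5 nuclear chromosomes. They were chosen by position alone, with the distance signed by the strand of the gene. Of 1996 nuclear peaks, 16.7% met this rule, 195 with their centre inside the gene that owns the TSS and 139 with their centre past its end. The rule left out genes that do not code for protein. For 98 of these peaks the TSS of another annotated gene was nearer, and 59 had an annotated TSS of any kind within 1000 bp. The list came from DNA affinity purification sequencing (DAP-seq) of 3xFLAG-PLT3, with 3xFLAG-EGFP, a fluorescent protein that does not recognise a DNA sequence, as the negative control. Both proteins met genomic DNA from whole roots of the wild-type ecotype Col-0 at 5 days post-germination (dpg), were captured on anti-FLAG beads, and gave 1 library each. With no replicate there is no spread between libraries, and each comparison below is between peaks or sequence windows of the PLT3 library.

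PLETHORA (PLT) proteins are plant transcription factors with a pair of AP2 DNA-binding domains, and they are best known for keeping stem cells and dividing cells in the root meristem. In DAP-seq, the tagged factor is incubated with naked, fragmented DNA, so a peak reports affinity for sequence without chromatin, and it may lie in exons, introns or repeats that are closed in the plant. A peak inside a gene or past its end therefore shows where the protein held DNA in the tube, and does not name a regulated gene.

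Sites of a PLT3 motif are printed first, because they are a feature of many of the 1.5 to 4 kb peaks that the rule did not use. A base-weight matrix with 16 positions was fitted to the 100 bp at the summits of the other 1662 nuclear peaks, which are not described here, and was then applied to the 1.5 to 4 kb peaks. Its most fixed positions were G at position 6, in 93.1% of the weight, T at position 4, in 87.6%, G at position 13, in 80.4%, A at position 9, in 66.9%, and C at position 2, in 60.3%. A window was said to hold a site when its best match on either strand scored at least 8.70 bits, a threshold that 5% of the flanks of the other peaks passed. The 30 bases around the best site are shown for 9 peaks, as sequence of TAIR10.1 (nuclear chromosomes as in TAIR10), read on the strand of the site, with the 16 bases of the site in capitals. The first 4 are from gene-body peaks with large enrichment. They are AT5G55770 (chr5:22573114-22573143, plus strand), AT1G21630 (chr1:7582841-7582870, minus), AT3G24740 (chr3:9032616-9032645, minus) and PIN4 (chr2:180420-180449, minus). Next are 3 high-scoring sites in gene bodies, AT1G10490 (chr1:3455050-3455079, minus), AT5G65900 (chr5:26360152-26360181, plus) and NRPA1 (chr3:21356746-21356775, minus). Past the gene end are AT4G04555 (chr4:2263180-2263209, minus) and AT3G30235 (chr3:11885293-11885322, plus).
AT5G55770: acgatgtGCCTCGATTATCGAACcatttga
AT1G21630: cagatgaTTCTTGGGGATTGTGCacaggcg
AT3G24740: caagttcGCCTCGGGAGTAGGGTcatttgc
PIN4: tgagagaGCCTCGGAGATTGGGCtatttat
AT1G10490: caatattGCATCGAAAAATGTGAcaacagc
AT5G65900: ttcgattGCCTTGAAATCCGTGGagggata
NRPA1: acatcatACCTCGGGATACGTCAatttcaa
AT4G04555: tacgccgATATCGGAATACGTGAacggaag
AT3G30235: tcagaggTCCTCGAAATGCGCAGcgtaact

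A motif site was present at the summit of 178 of the 1.5 to 4 kb peaks, or 53.3% (95% Wilson interval 47.9 to 58.6%). The share was 6.59% (4.39 to 9.77%) for flanking windows of equal length. These were centred 500 bp downstream of each summit on the plus strand of the chromosome, whatever the strand of the gene. The summit alone held a site in 161 peaks and the flank alone in 5 (p = 2.18e-41 by an exact binomial test, two-sided, of these 161 against these 5). The summit share depends on the settings, and was 27.2% with a threshold that only 1% of the flanks of the other peaks passed. Intervals here and below cover counting error only, and peaks that share sequence are not independent of each other. In the whole list, 58.9% of nuclear peaks had a site at the summit and 5.31% had one in the flank. That summit share lay just above the interval of the 1.5 to 4 kb peaks, and most of the peaks behind it are those the matrix was learnt on. It was 71.0% (66.0 to 75.6%) for peaks 0 to 500 bp downstream of the TSS and 63.9% (58.6 to 68.8%) for those from there to 1.5 kb. Farther than 4 kb downstream it was 51.2% (45.1 to 57.2%). These differences between distance classes were not tested. Of all 100 bp windows of sequence in the same distance range, 4.01% held a site. The centre of the site lay a median of 4.5 bp from the summit, the same as in all nuclear peaks, and no position within the window had been favoured in learning or scoring. The orientation of the site to the gene was mixed: 65 of the 115 sites in gene bodies lay on the strand of the gene, or 56.5% (47.4 to 65.2%).

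**Figure D1:**
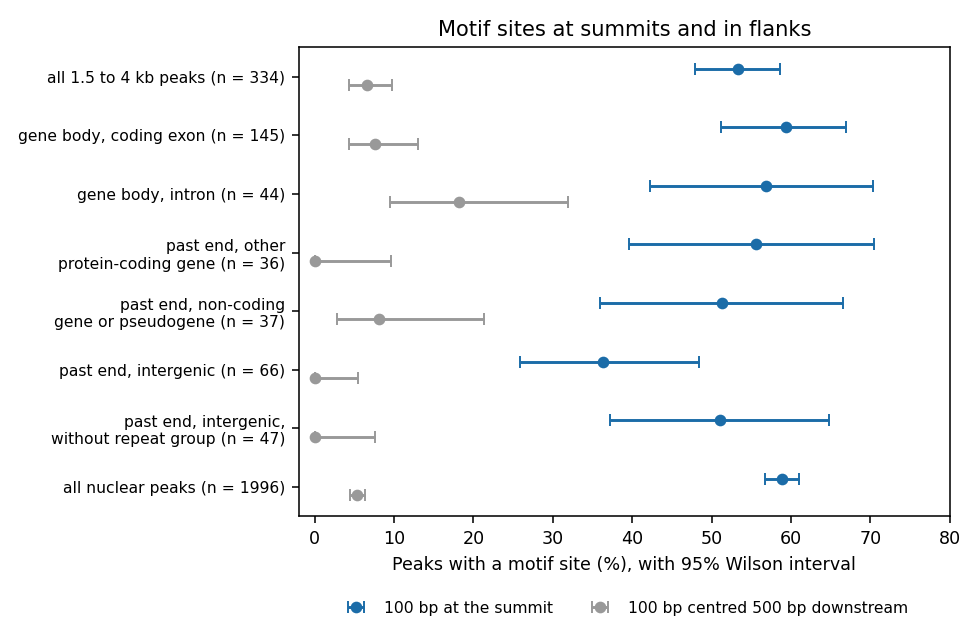
Share of peaks with a motif site (horizontal axis, %) in the 100 bp at the summit (blue) and in a flank of 100 bp (grey). The flank is centred 500 bp downstream of the summit on the plus strand of the chromosome. Rows are the 1.5 to 4 kb peaks, their annotation classes and all nuclear peaks. Points are shares, bars 95% Wilson intervals. The summit share of the 1.5 to 4 kb peaks (53.3%) lay far above their flank share (6.59%), and the class past the gene end in intergenic sequence had the lowest summit share (36.4%), which was 51.1% without the repeat group described in the text.

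The centres of 145 peaks fell in a coding exon of the gene that owns the TSS, 44 in an intron, 5 in a 3′ UTR and 1 in a 5′ UTR. Past the gene end, 66 centres lay in intergenic sequence, 37 in an annotated non-coding gene or pseudogene and 36 in another protein-coding gene whose own TSS was farther away. Coding exons thus held 74.4% of the gene-body peaks but 54.2% of the gene-body sequence in the same distance range, whereas introns held 22.6% of these peaks and 33.3% of that sequence. Per Mb there were 19.6 peaks in coding exons (95% exact Poisson interval 16.5 to 23.0), 9.66 in introns (7.02 to 13.0) and 3.51 in UTR exons (1.29 to 7.64). The highest density was in non-coding genes and pseudogenes past the gene end, with 35.4 peaks per Mb (24.9 to 48.7), and intergenic sequence past the gene end had 14.03 (10.8 to 17.8). Leaving the peaks of a repeat group described below out of the intergenic count gave 9.99 (7.34 to 13.3) over the same sequence, close to the value of introns. The intervals of coding exons and introns did not overlap, nor did those of non-coding genes or pseudogenes and intergenic sequence. Repeated sequence was unevenly spread over these classes. A run of 20 bases was shared with another nuclear peak by 18 of the 37 peaks in non-coding genes or pseudogenes. The same held for 33 of the 66 intergenic peaks and 14 of the 195 gene-body peaks. Together, the distance range had 15.2 peaks per Mb (13.6 to 16.95), against 16.8 (16.03 to 17.5) in the nuclear genome as a whole. Windows of 100 bp in coding exons of the range held a motif site in 5.35% of cases, and those in introns in 2.95%, so the sequence offered to the protein differed between the classes as well. Whether this accounts for the difference in density was not tested.

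**Figure D2:**
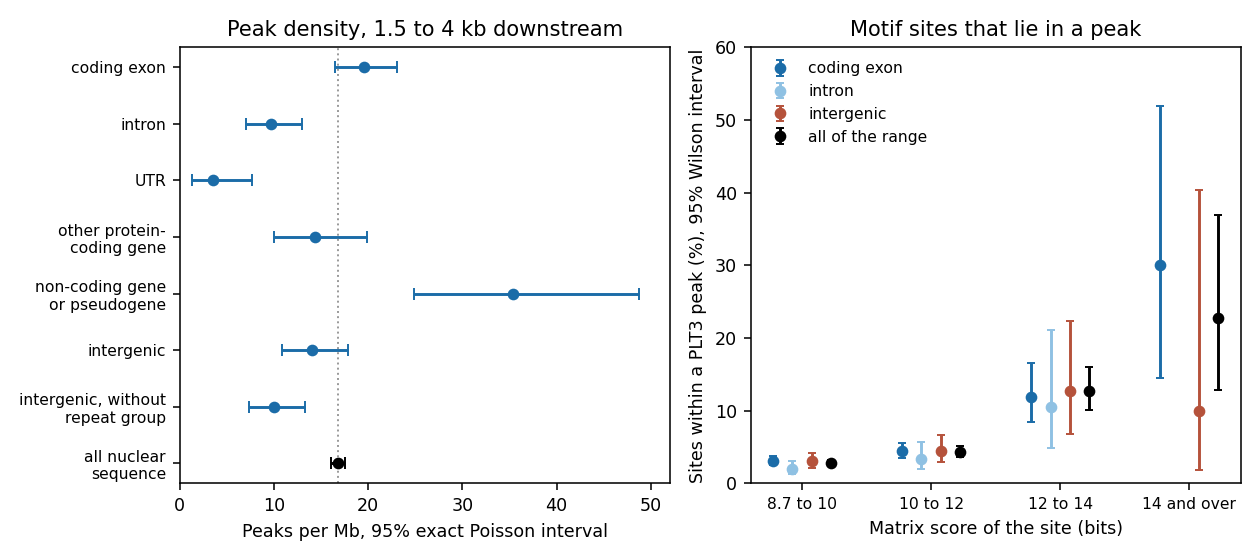
Left, peaks per Mb of sequence 1.5 to 4 kb downstream of a protein-coding TSS in each annotation class (points, with 95% exact Poisson intervals), with the nuclear genome as the last row and the dotted line. Right, the share of motif sites of the range that lie within a PLT3 peak, by matrix score in bits (points, with 95% Wilson intervals; score classes with under 10 sites are left out). Coding exons had 19.6 and introns 9.66 peaks per Mb, and the share of sites in a peak was 2.81% in the lowest score class and 22.7% in the highest.

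Most motif sites of this range were not in a peak. The matrix found 10507 sites in sequence 1.5 to 4 kb downstream of a protein-coding TSS, and 399 of them, or 3.80% (3.45 to 4.18%), lay within a nuclear PLT3 peak. The share was higher for better matches, at 2.81% below 10 bits, 4.31% from 10 to 12 bits, 12.7% from 12 to 14 bits and 22.7% (12.8 to 37.0%, 10 of 44 sites) from 14 bits. Sites in coding exons were in a peak in 4.01% of cases (3.50 to 4.59%) and sites in introns in 2.71% (1.97 to 3.71%). Intergenic sites stood at 3.91% (3.08 to 4.97%), and sites in non-coding genes or pseudogenes at 7.37% (5.58 to 9.66%). Among the 178 peaks with a site, score and fold enrichment were only weakly related (Pearson r = 0.08 with log2 fold enrichment, Spearman rho = 0.11). These coefficients describe peaks of 1 library, which share its depth and control.

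Coding sites were unevenly spread over the reading frame, as were matches to the matrix in coding exons in general. Of 89 sites that lay whole within 1 coding exon, 54 began at the second base of a codon when read along the gene, or 60.7% (50.3 to 70.2%). The share was 52.1% (50.7 to 53.6%) over all 4606 matches in coding exons of the range, those in peaks included. Sites on the strand of the gene had 26 of 52 at this position, or 50.0%, against 47.7% of all such matches. Sites on the opposite strand had 28 of 37, or 75.7%, against 57.4% of all such matches. These differences were not tested.

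The number of peaks declined with distance, with 100 peaks in the 500 bp nearest to the lower limit, then 81, 65, 55 and 33 in the following steps of 500 bp. The share inside the gene was 77.0%, 61.7%, 53.8%, 47.3% and 21.2% in the same order. The length of sequence in each step was not set beside these values, so they do not show a fall in peak density. Median fold enrichment over the steps was 4.69, 4.43, 4.73, 5.23 and 4.75, with no steady trend. At the edges of the rule, the nearest peaks inside were at ALS3, with a fold enrichment of 8.32, and AT5G64190, with 4.98, at the lower limit, and AT1G36320, with 4.75, and AT2G30105, with 2.69, at the upper limit. Just outside were AT1G64130, with a fold enrichment of 5.60, and AT4G26880, with 4.68, at the lower limit, and AT5G15680, with 7.56, and AT1G34580, with 5.34, at the upper limit.

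**Figure D3:**
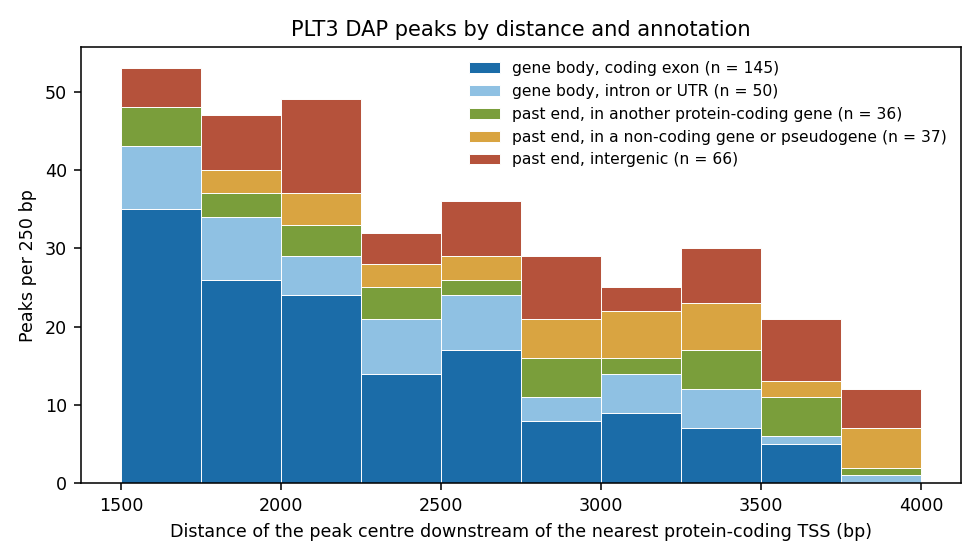
Number of PLT3 peaks per 250 bp (vertical axis) by the distance of their centre downstream of the nearest protein-coding TSS (horizontal axis, bp), stacked by annotation class with the class sizes in the legend. Coding exons (145 peaks) made up most of the bars near the lower limit, and peaks past the gene end most of those near the upper limit.

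Fold enrichment, the ratio of the PLT3 signal to the local background at the summit, had a median of 4.71 (quartiles 4.04 and 6.23, range 2.52 to 17.4) in the 1.5 to 4 kb peaks, against 4.75 (3.99 and 6.09) over all nuclear peaks. The other distance classes had medians between 4.59 and 4.92, so the peaks of this range were not set apart in strength. Inside genes the median was 4.52 and the highest value 11.8. Past the gene end the median was 5.02 and the highest value 17.4. In intergenic sequence past the gene end the median was 5.38, and it was 4.74 for the 47 of these 66 peaks that lie outside a group of repeats described below.

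**Figure D4:**
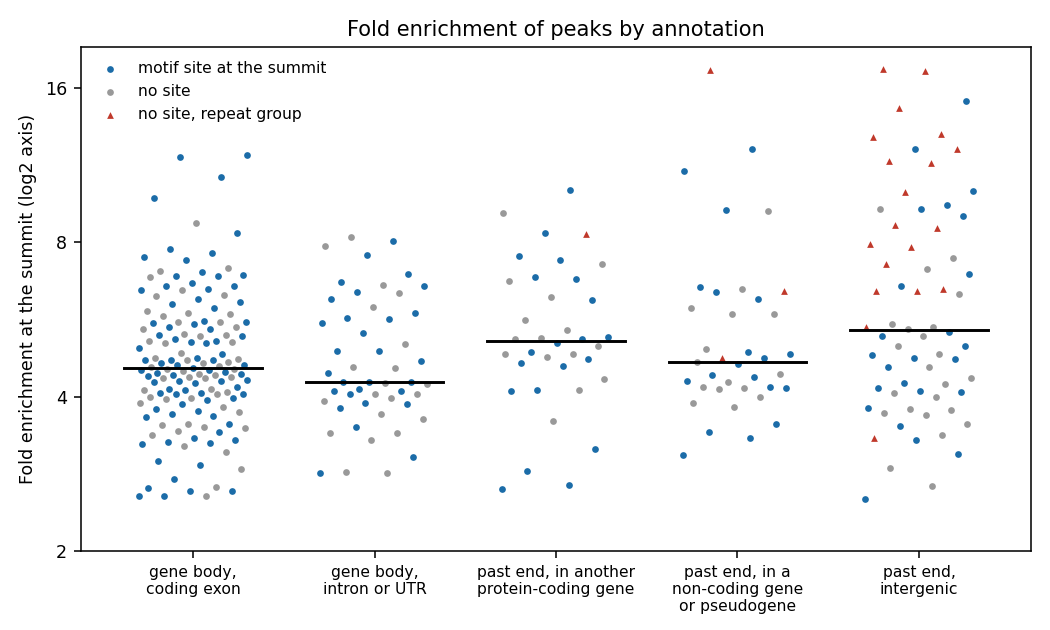
Fold enrichment at the summit (vertical axis, log2 scale) of each 1.5 to 4 kb peak by annotation class. Blue points have a motif site at the summit, grey points have none, red triangles are the peaks of the repeat group, and the black line is the class median. All but 8 gene-body peaks lie below 8, and the 3 highest values are red triangles past the gene end.

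Peaks inside genes fell in 190 genes, or 0.994% of the 19111 protein-coding genes long enough to hold one. Their host genes had a median length of 3958 bp (range 1796 to 11437), against 2586 bp for all such genes, and a long gene offers more sequence to the rule. Of the 145 coding peaks, 54 lay in the last coding exon of their gene, 34 in the first, and 21 in genes with a single coding exon, which count in both. The coding sequence of the range was not split by exon order, so these counts show no preference. The 10 gene-body peaks with the smallest q-values (the false discovery rate of the peak caller, given as −log10 q) are described next, apart from 1. AT5G55770, which encodes a protein with C1 domains rich in cysteine and histidine, had the largest, at 11.8 with a −log10 q of 25.6, in its only coding exon. AT5G04310, a pectin lyase-like protein, followed with 11.7 in coding exon 2 of 5, and AT1G21630, a protein with calcium-binding EF hands, with 10.7 in coding exon 2 of 14. AT3G24740, annotated as a putative cellulose synthase, had 9.76 in its only coding exon. All of these held a motif site at the summit.

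Others of the same 10 belonged to well-studied families. EXO70H5, a subunit of the exocyst that tethers secretory vesicles to the plasma membrane, had a fold enrichment of 8.31 in a coding exon and held a site. By contrast, TRM25 with 8.71, STT3A with 8.18 and HDG1 with 7.87 had no site at the summit. STT3A encodes the catalytic subunit of the oligosaccharyltransferase that glycosylates proteins in the endoplasmic reticulum, and HDG1 is a homeodomain transcription factor of the epidermis. Both peaks were centred in an intron. PIN4, an auxin efflux carrier of the root meristem, had 8.04 with a −log10 q of 14.03, and its peak (chr2:180170-180572) was centred in the 3′ UTR over the site printed above, which scored 12.6 bits. PIN4 was the only 1 of 19 meristem genes looked up (the PLT genes, SCR, SHR, WOX5, MP, the PIN genes and others) with a peak at this distance. It was 1 of 18 of these genes long enough to hold a gene-body peak, or 5.56%, beside 0.994% of all such genes. So small a list shows nothing about meristem genes as a set.

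**Figure D5:**
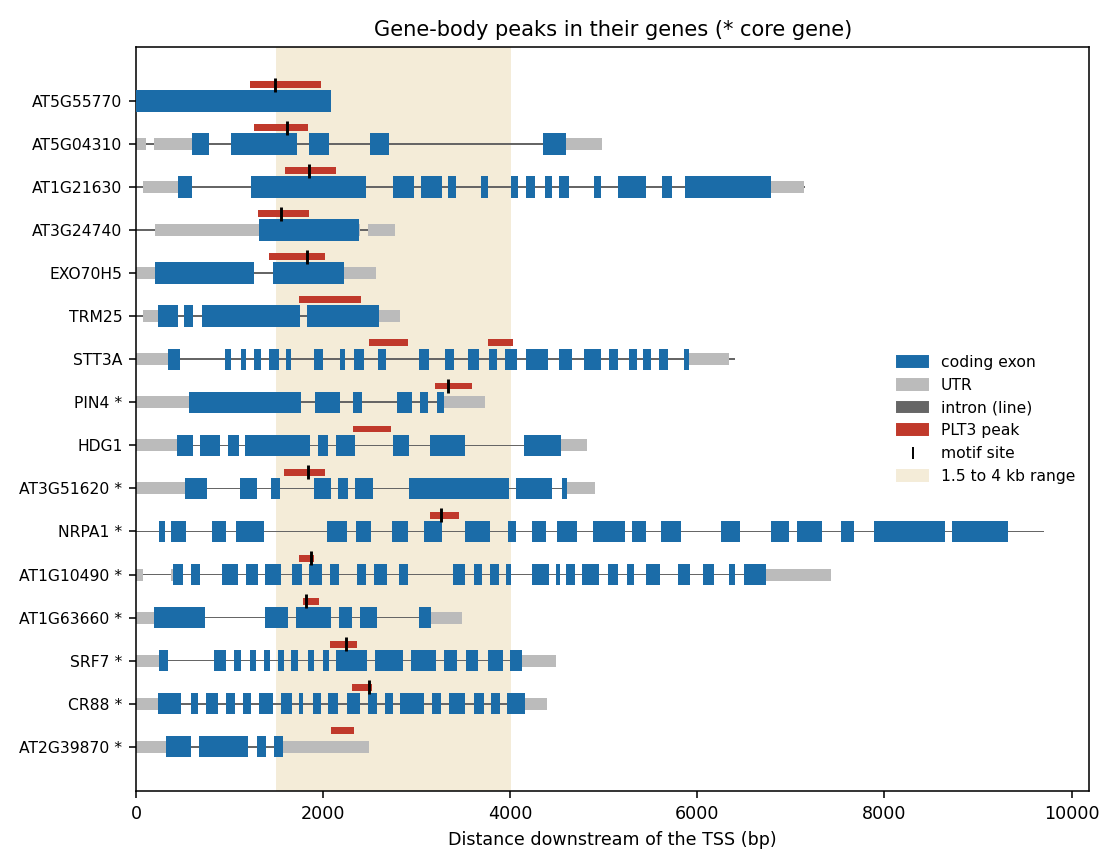
Gene models of 9 of the 10 gene-body peaks with the smallest q-values and of the other core genes (asterisks) with a gene-body peak, drawn as distance downstream of the TSS (horizontal axis, bp) for the transcript with the longest coding sequence. Blue boxes are coding exons, grey boxes UTRs, lines introns, red bars PLT3 peaks with black ticks at motif sites, and the shaded band is the range of 1.5 to 4 kb. AT5G55770 has its peak in a single coding exon, PIN4 has its peak centred in the 3′ UTR, and STT3A has a pair of peaks centred in introns, without a site.

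A list of PLT core target genes and a wider list of direct targets, both of which the study built in part from these peaks, were compared by name only, so their counts are not independent evidence. Of 177 core genes long enough to hold such a peak, 8 had one in the gene body, or 4.52%, and of 278 direct targets 13 did, or 4.68%, beside the 0.994% of all long genes. Counting peaks past the gene end as well, core genes were nearest to 10 peaks and direct targets to 17. Motif sites were present in 8 and 12 of these peaks, beside 53.3% of all 1.5 to 4 kb peaks, and these small counts were not tested. Median fold enrichments of the core and direct target peaks were 4.84 and 4.55, beside 4.71 over all 1.5 to 4 kb peaks.

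Within the core genes, PIN4 had the largest fold enrichment. AT3G51620, with a PAP/OAS1 substrate-binding domain, had 7.54 in an intron. NRPA1, the largest subunit of RNA polymerase I, which transcribes ribosomal RNA genes, had 5.82 at a peak centred in an intron. Its site scored 12.1 bits and spanned the end of the coding exon before that intron. AT1G10490, annotated as a GNAT acetyltransferase, had the best match among the core genes, printed above, and a fold enrichment of 4.04. AT1G63660, a GMP synthase, had 3.95, and SRF7, a receptor-like kinase of the STRUBBELIG family, had 3.66. CR88, a chaperone of the HSP90 type in the chloroplast, had 3.49, and AT2G39870 had 3.40 with no site. For PPa2, a pyrophosphatase of the cytosol, with 6.16, and SHS1, a carrier of the mitochondrial family, with 5.65, the peak lay past the gene end inside the next protein-coding gene. The direct targets outside the core ranged from 3.09 at Prx37, a peroxidase, to 6.40 at AT2G15440. At both of these genes the peak lay past the gene end, and at AT2G15440 it was inside a non-coding gene. The other direct targets outside the core had gene-body peaks. ANL2, a homeodomain transcription factor, had 3.29, ABCG25, an exporter of abscisic acid, 5.67, SAG101, which acts in leaf senescence and immunity, 4.55, AT3G54000 5.87 and NPGR2 3.74.

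Lists made from words in the annotated product name gave small counts, which are set beside the background of 0.994%. Genes annotated as kinases held gene-body peaks in 18 of 1252, or 1.44%, transporters or ATPases in 7 of 571, or 1.23%, and chromatin or methyltransferase genes in 3 of 324, or 0.926%. Disease resistance genes held them in 5 of 163, or 3.07%, and helicase genes in 3 of 118, or 2.54%. Cytoskeleton genes stood at 3 of 204, or 1.47%, transcription factors at 4 of 286, or 1.4%, glycosyl or cellulose genes at 4 of 342, or 1.17%, and ubiquitin or F-box genes at 3 of 480, or 0.625%. None of 50 genes of DNA replication or repair held one. No list was tested, and genes of families such as disease resistance genes share sequence and lie in clusters.

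Single genes show what these peaks were like. AT2G14080, a disease resistance gene of the TIR-NBS-LRR class, had a fold enrichment of 7.48 in its last coding exon. AT5G65900, annotated as a DEA(D/H)-box RNA helicase, had 6.99 over a site of 13.3 bits, and emb1507, a helicase of the U5 small nuclear ribonucleoprotein of the spliceosome, had 5.59. WAPL, which releases cohesin from chromosomes, is the annotation of AT1G11060, and its peak had 7.38 in coding exon 8 of 13. DMS11, an ATPase of the gyrase and HSP90 type, had 6.60 in an intron without a site, INT1, an inositol transporter, had 5.09 without a site, and ERD3, a methyltransferase, had 3.89 without a site. The strongest peaks of the remaining lists were at AT3G42060, annotated as myosin heavy chain-like, with 6.66 in a coding exon, and, past the gene end, AT5G32590 with 7.08, AT3G60940 with 12.1, AT3G30235 with 9.44 and AT4G04555, a Myb family gene, with 9.28.

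The 1.5 to 4 kb peaks had 325 different nearest genes, and 9 of these had a pair of peaks. In 5 of the 9 both peaks lay in the gene body. RLP19, a receptor-like protein, had fold enrichments of 4.39 and 3.78 in its single coding exon, both with a site. AT1G20400 had 4.42 and 4.14, both with a site, and AT4G23440, a TIR-NBS resistance gene, had 6.46 with a site and 4.40 without one. AT2G15420 had 5.31 with a site and 4.05 without, and STT3A had 8.18 and 3.70, both without. For AT1G46696 and AT2G17110 the first peak was in the last coding exon, with 5.24 and 5.12, and the second lay past the gene end, with 4.34 and 7.24. AT2G12905 and AT5G20790 had both peaks past the gene end, with 12.2 and 4.56 for AT2G12905 and 6.47 and 4.83 for AT5G20790.

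The strongest peaks past the gene end were of another kind. Of all 1.5 to 4 kb peaks, 69 shared a run of 20 bases with at least 1 other nuclear peak, and 23 of them belonged to the largest group of nuclear peaks linked in this way, which has 133 peaks in all. This group was found after the values had been seen. It was not particular to this range, as 76 of the 436 nuclear peaks within 4 kb upstream of the nearest TSS belonged to it. The 110 peaks of the group outside the range, which were among those the matrix was learnt on, had a median fold enrichment of 8.05. Of these 110, 13.6% had a motif site at the summit. None of the 23 had a motif site at the summit, which allows a share of up to 14.3% by the Wilson interval, whereas 57.2% (51.7 to 62.6%) of the 311 others had one. Their median fold enrichment was 8.52 (quartiles 6.45 and 12.5), against 4.62 (3.98 and 5.79) for the 311 others, and they made up 10 of the 20 peaks of the range with the largest −log10 q. Of the 23, 19 were intergenic, 3 lay in a non-coding gene or pseudogene and 1 in another protein-coding gene. Their median GC content was 36.9%, against 42.7% in the others.

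The sequence at their summits was a tandem array. Its most common word of 8 bases, CCGCCAAA (reverse complement TTTGGCGG), occurred in all 23 peaks and in 131 of the 133 peaks of the group. A peak of the 23 held 1 to 21 copies, with a median of 9, all in 1 direction, and neighbouring copies started a median of 28 bp apart. In the 300 bp at the summit, 22 of the 23 had at least 2 copies, against none of the 311 others and 0.137% of all 300 bp windows of the nuclear genome. The array is shown for the 3 with the largest −log10 q, as the 150 bases at the summit with the word in capitals. They lie past the ends of AT1G17410 (chr1:5966394-5966543, minus strand), NRPE3B (chr2:6715442-6715591, minus strand) and SWEET4 (chr3:10406689-10406838, plus strand).
AT1G17410: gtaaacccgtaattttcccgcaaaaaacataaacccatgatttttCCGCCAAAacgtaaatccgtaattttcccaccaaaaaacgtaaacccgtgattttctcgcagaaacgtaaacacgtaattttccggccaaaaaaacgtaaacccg
NRPE3B: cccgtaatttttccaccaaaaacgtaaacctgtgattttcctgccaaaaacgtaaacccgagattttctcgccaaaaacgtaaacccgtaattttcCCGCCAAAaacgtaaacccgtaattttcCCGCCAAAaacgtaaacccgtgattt
SWEET4: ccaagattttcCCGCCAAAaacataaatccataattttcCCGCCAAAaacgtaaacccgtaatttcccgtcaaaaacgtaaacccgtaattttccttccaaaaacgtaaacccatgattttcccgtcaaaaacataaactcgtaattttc

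The peak past the end of NRPE3B, a subunit gene of a plant-specific RNA polymerase, had the largest fold enrichment of the range, 17.4. The one past SWEET4, a sugar transporter gene, lay in a pseudogene and had 17.3, and the one past AT1G17410, a nucleoside diphosphate kinase gene, had 17.3. AT1G51840, a kinase-like gene, with 13.0, and the F-box genes AT1G30780, with 12.1, and AT1G51320, with 11.4, had nearest peaks of the same group, as did AT2G17110 with its second peak. Of 82 windows of 300 bp in the distance range with at least 2 copies of the word, 39 overlapped a nuclear peak, or 47.6% (37.1 to 58.2%). The word was chosen from peaks of this group, so the share is a description only. The authors removed reads with a mapping quality below 30, a step that bears on repeated sequence, and its effect on these peaks was not tested. The EGFP library was not analysed here, so whether its reads also moved with the array was not tested. The gene next to such a peak is named only as the nearest one.

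Outside this group, the strongest peaks past a gene end did carry motif sites. AT3G44020 had a fold enrichment of 15.1 with a −log10 q of 36.3, and AT2G12905 had 12.2 with 34.0, each over a site. By fold enrichment, a site was present in 51.2% of the 82 peaks of the range below 4, in 53.7% of the 162 from 4 to below 6, in 58.2% of the 55 from 6 to below 8 and in 48.6% of the 35 from 8. Without the repeat group, the shares in the same order were 51.9% of 81, 54.4% of 160, 66.7% of 48 and 77.3% of 22 peaks. This step took 7 and 13 peaks, all without a site, from the highest classes, and the group was picked after the values had been seen. The rise over the classes is thus in part set by that choice, and it was not tested.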

How the data were processed

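Per the labels and the study's methods, the authors used fastp 0.23.2 for trimming, BWA-MEM 0.7.17 for alignment to TAIR10, and SAMtools 1.15 with Sambamba 0.6.6 to drop secondary, unmapped, duplicate and low-quality alignments (mapping quality under 30). MACS3 3.0.0a7 then compared PLT3 with EGFP at a q-value of 0.05. For every peak the deposited table lists a fold enrichment (a linear ratio to the local background), −log10 p, −log10 q and an integer score that was not used. It holds no read counts, so the depth is unknown. The 334 peaks centred 1501 to 4000 bp downstream of the nearest of 27444 protein-coding TSSs in TAIR10.1 were taken, and 40 rows off the nuclear chromosomes were left out. Sequence of the same distance range was counted base by base. The matrix was learnt by expectation maximisation from 8 seed words. Matrix learning and the exact test were tried on simulated data. Nearest TSSs, the distance range and its annotation classes were checked at random positions of the genome. The other steps were not checked in this way. Sites at summit and flank were compared with an exact binomial test (two-sided). The peaks and gene lists were chosen with earlier results of these data known. Genes named are those of the 10 gene-body peaks and 5 peaks past the gene end with the largest −log10 q, genes with 2 or more peaks, up to 10 core genes, and the 2 strongest peaks of each list (of 197 core and 334 direct target genes, a meristem list and product words). The other genes on the study's lists, the genes at the edges of the range and examples of the repeat group were added after their values were seen. One gene that the rule names is not reported here. Alternatives were stricter q-values, summits for centres, other TSS sets, other windows, thresholds, matrix widths and flanks, and peaks without shared sequence. Python 3.11.15, numpy 2.4.6, pandas 2.3.3, scipy 1.17.1 and matplotlib 3.10.9 were used.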

Additional observations from a re-analysis of the deposited data

How the results depend on the processing

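No paired analysis was possible because each protein has 1 library. The excess of motif sites at the summit over the flank, 46.7 percentage points, kept its direction and side of the threshold under all 12 alternatives, with differences of 25.7 to 59.6 points and a largest p of 5.24e-23 (two-sided exact binomial test). At a q-value of at most 1e-05, 157 peaks remained, 49.7% of them in the gene, with a median fold enrichment of 6.40, a site share of 63.7% and 7.16 peaks per Mb. With the TSS of every annotated gene, non-coding ones included, 67.4% of the peaks were inside the gene that owns the TSS and there were 18.8 per Mb. The site share was 47.3% with windows of 200 bp, 65.6% with 60 bp, 27.2% with a threshold passed by 1% of flanks and 40.4% with a matrix of 12 positions. Leaving out the repeat group, an alternative chosen after seeing the data, left 311 peaks and moved none of the other 6 results past its interval or threshold. The share of gene-body peaks in coding exons was not recomputed for other TSS sets. A single library without counts limits each value to these peaks as called.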
